A study of Mus musculus with 8 samples.

Results

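The genes described here encode the subunits of oxidative phosphorylation (OXPHOS), the 5 mitochondrial protein complexes that pass electrons from nutrients to oxygen and make ATP. They were taken from the table of 53801 genes by name: rows named as subunits of complexes I to V, cytochrome c or the mitochondrially encoded chain, with no pseudogene suffix and a mean normalized count of 10 or more over all 8 mice. Of 103 rows with such names, 6 were pseudogenes and 9 had a lower mean, which left 88 genes, 76 encoded in the nucleus and 12 in mitochondrial DNA. The lowest mean inside the limit was 10.7 (mt-Nd4l) and the highest outside it was 9.96 (Cox6a2).

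Complexes I and II feed electrons from NADH and succinate into the chain, complex III passes them to cytochrome c, and complex IV gives them to oxygen. Complexes I, III and IV pump protons, and complex V, the ATP synthase, uses the returning protons to make ATP. Most subunits are encoded in nuclear genes, whose proteins are imported; a small core is transcribed inside the mitochondrion as long RNAs that are cut into single messages, so that every complex except II needs both genomes. In macrophages and microglia, inflammatory activation is known to shift the balance between glycolysis and this pathway.

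Microglia, the resident macrophages of the brain, were sorted out of the cerebral cortex of mice aged 30 days, and their RNA was sequenced in bulk. The IL-33 group was 4 mice (1 and 2 female, 3 and 4 male) injected into 1 ventricle with interleukin-33, a cytokine of the interleukin-1 family; the vehicle group was 4 mice (5 and 6 female, 7 and 8 male), whose columns the table calls PBS. All were taken 4 h after the injection. Strain, genotype and gate markers were not given in the sources used here, and nothing says whether mice of a group shared a litter.

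Recovered depth was 6989640 to 9323677 reads per mouse. The 10 microglial markers were all detected; their summed normalized count was 110260 to 119290 in IL-33 mice and 173450 to 197900 in vehicle mice, and 6 of them fell, 1 rose and 3 were not called. Of the 10 monocyte and neutrophil markers 5 were at 0 in all mice, with a summed count of 17.9 to 30.1 against 62.2 to 95.9. The sum of 10 astrocyte markers was 2440 to 2693 against 1618 to 1889, mostly Slc1a3 (2071 against 1330 in the mean); of the 5 tested, Slc1a3 rose (log2 0.64), Aqp4 fell (-1.40) and 3 were not called. Of the 8 lymphocyte markers 2, Cd3e and Nkg7, were at 0 in all mice, and the 1 that was tested was called higher. The sum of the 8 is not reported here. Border macrophage markers summed to 2036 to 2289 against 5006 to 6511. The part of these shifts in the results below was not tested. In such bulk samples fewer cells of a type and less RNA per cell cannot be told apart.

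After IL-33, 15 of the 88 genes rose and 6 fell, and 67 were not called. A gene was called when the adjusted p of limma, with Benjamini-Hochberg adjustment over all 15110 genes tested, was under 0.05. Those shares were 17.0% and 6.82%, beside 29.2% and 28.5% of all genes tested, of which 57.7% were called in either direction. The median size of the log2 fold change was 0.22 for the 88 genes and 0.53 for all genes tested, while 7.95% of the 88 and 46.3% of all genes tested changed by 1.5-fold or more in the fit. The groups did not overlap for 22 of the 88 genes, against 52.3% of all genes tested. Every called gene was nuclear. The nuclear set had 15 higher and 6 lower of 76 (median log2 fold change 0.12), and the mitochondrially encoded set had 0 called of 12 (median -0.12), while the median of all genes tested was 0.02.

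**Figure D1:**
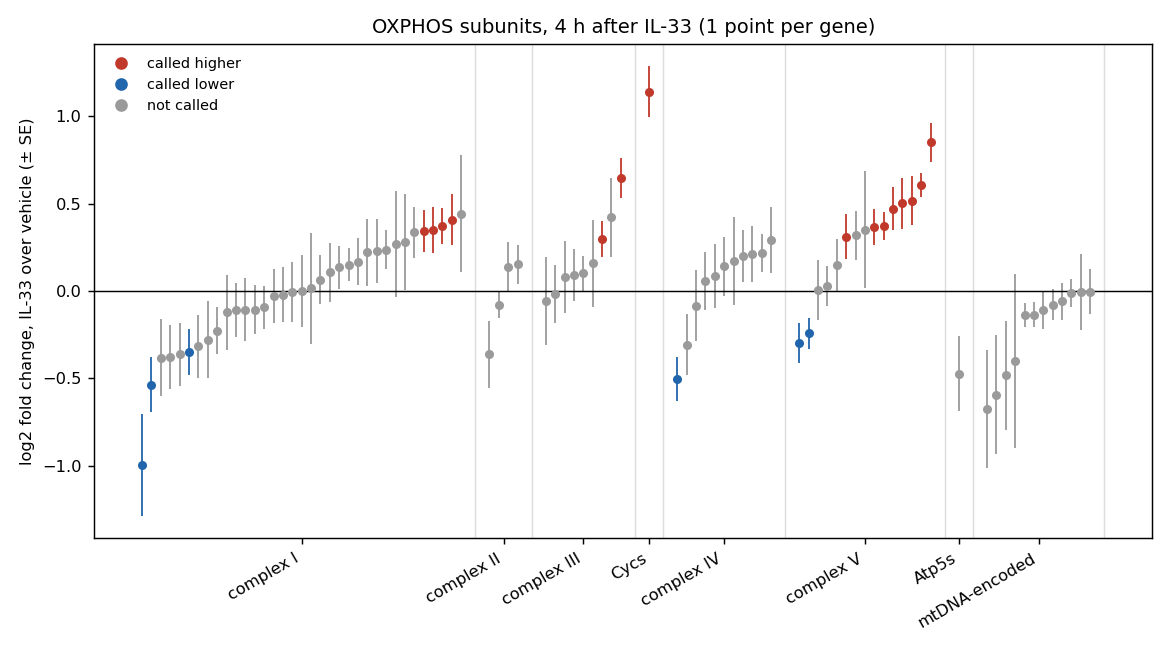
The log2 fold change of IL-33 over vehicle (vertical axis, ± SE from limma, n = 4 and 4) for each of the 88 genes, grouped by complex and sorted within it; red and blue mark called genes. Complex V holds 8 of the 15 rises, Cycs stands highest at 1.14, and all 12 mitochondrially encoded genes lie below 0 without a call (11 of 12 under quantile normalization, 4 of 12 in females alone).

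Complex V held most of the rises. Among the 15 nuclear genes of the ATP synthase 8 were higher, 2 lower and 5 uncalled, with a median log2 fold change of 0.35. Atp5b, on chromosome 10 (128083273 to 128090391, plus strand, GRCm38; ENSMUSG00000025393), encodes the catalytic beta subunit and had the highest nuclear level per kb of exon in vehicle mice, 631 normalized counts per kb. Its normalized counts were 4121, 3989, 4118 and 4067 in IL-33 mice 1 to 4 and 2844, 2747, 2596 and 2515 in vehicle mice 5 to 8. The groups were far apart relative to the spread within each. The means were 4074 ± 61.6 and 2676 ± 148 (SD, n = 4 each), a log2 fold change of 0.61 ± 0.07 (SE; limma adjusted p = 5.54e-07).

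Atp5g1 is 1 of 3 genes for the c subunit, the membrane ring that turns as protons pass; all 3 genes encode the same mature protein. It lies on chromosome 11 (96068852 to 96075670, minus strand; ENSMUSG00000006057). Its counts were 430.1, 441, 462 and 404 after IL-33 and 252, 210.5, 224 and 278 after vehicle. Every IL-33 mouse was above every vehicle mouse (log2 fold change 0.85 ± 0.11, limma adjusted p = 5.00e-06). Its paralog Atp5g3 also rose, from 175 ± 8.0 to 243 ± 25.0 (SD, n = 4 each; log2 0.47), and the third, Atp5g2, was 175 against 194 and was not called (log2 0.15 ± 0.15, SE).

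The remaining rises of complex V spanned its head, stalk and membrane parts. Atp5a1, the alpha subunit that alternates with beta in the head, had counts of 1720, 1961, 1749 and 1749 after IL-33 and 1489, 1253, 1380 and 1431 after vehicle, with no overlap (log2 0.37 ± 0.08, limma adjusted p = 0.00076). Atp5l, the membrane subunit g, was 300.2 ± 29.1 against 211 ± 38.6 (SD, n = 4 each; log2 0.52). The peripheral stalk subunits Atp5o (log2 0.50), Atp5f1 (subunit b, 0.37) and Atp5h (subunit d, 0.31) rose too, but Atp5h was not called by edgeR (adjusted p = 0.0718) or DESeq2 (0.0757). For Atp5o 35.6% of exon bases are shared with genes on the other strand, and whether the counting used strand was not given in the sources used here, so part of its reads may belong to those genes.

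The falls within the same enzyme were smaller. Atp5j, the stalk subunit F6, had counts of 261, 239, 265 and 213 after IL-33 and 289, 276, 315 and 320.3 after vehicle. Atp5c1, the gamma subunit that forms the rotating shaft, had 543, 572, 538 and 565 against 623, 666, 608 and 736. Neither overlapped between the groups, and the log2 fold changes were -0.30 ± 0.12 and -0.24 ± 0.09 (SE). Atp5j lost its call in 5 of the 8 fits that left out 1 mouse, and Atp5c1 in 4. The small subunits Atp5d (0.03) and Atp5e (0.00), of the central stalk, were not called. Atp5s, which the name pattern takes in although its protein is not a subunit, was 48.4 against 66.9 and was not called (log2 -0.47).

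**Figure D2:**
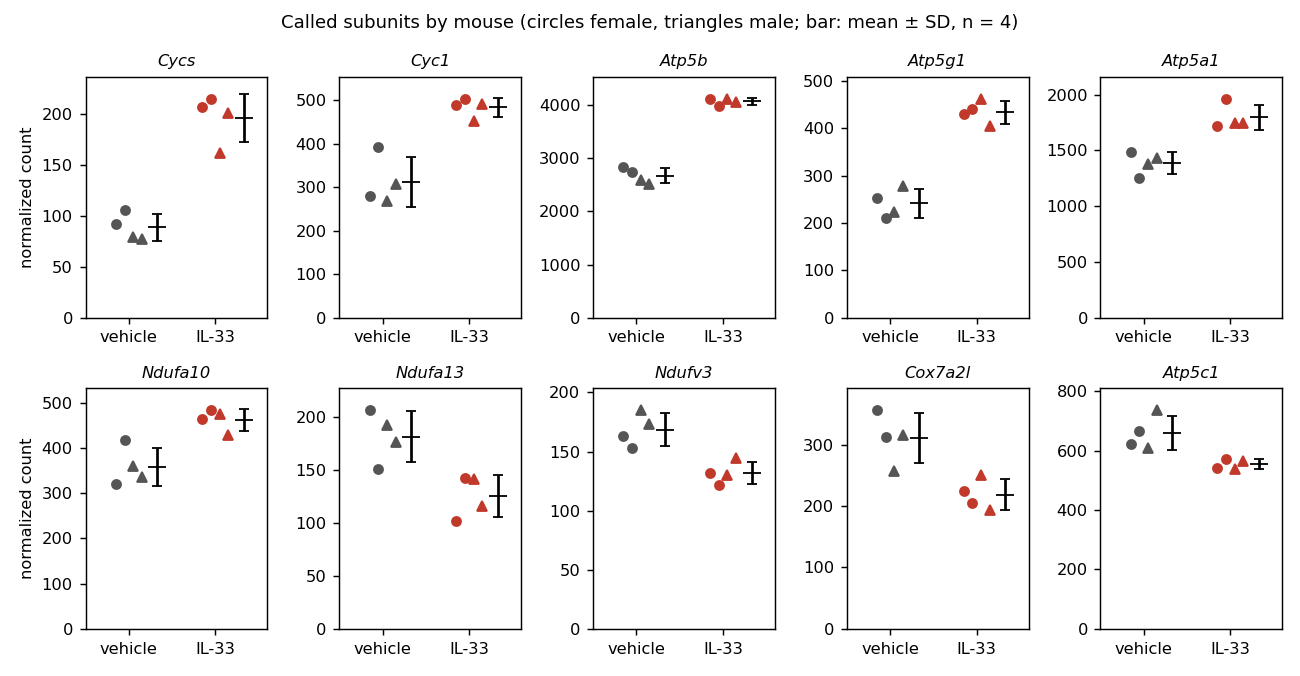
Normalized counts (vertical axes, from 0) of 10 called genes in each mouse, vehicle in grey and IL-33 in red, circles for females and triangles for males, with the mean ± SD of 4 mice. In the upper row and for Ndufa10 every IL-33 mouse lies above every vehicle mouse; in the other 4 panels every IL-33 mouse lies below.

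Promoters are shown for 4 of these genes because they rose together, including 1 that holds none of the motifs searched. The 100 bases come from RefSeq (GRCm38.p6), 5′ to 3′. For Atp5b and Atp5g1 the RefSeq start lies within the gene coordinates given above, and so does part of the bases shown. The bases run from 100 to 1 before the RefSeq start, except for Atp5l. There the window was placed over its matches, from 240 to 141 before the start. They are printed with motif matches in capitals: GCATGCGC, the core of the site of NRF1, a factor known to act on nuclear respiratory genes, and the E-box CACGTG.
Cycs, chr6:50566570-50566669, minus strand: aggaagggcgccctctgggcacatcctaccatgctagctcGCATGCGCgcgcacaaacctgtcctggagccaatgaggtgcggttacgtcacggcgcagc
Atp5l, chr9:44920883-44920982, minus strand: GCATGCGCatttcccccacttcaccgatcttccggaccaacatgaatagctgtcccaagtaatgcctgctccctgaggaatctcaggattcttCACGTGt
Atp5g1, chr11:96075632-96075731, minus strand: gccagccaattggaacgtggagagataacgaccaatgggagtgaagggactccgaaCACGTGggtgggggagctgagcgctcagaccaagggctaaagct
Atp5b, chr10:128083207-128083306, plus strand: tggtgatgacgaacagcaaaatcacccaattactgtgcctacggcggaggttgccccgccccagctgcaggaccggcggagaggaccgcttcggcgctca

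Of the 76 nuclear genes 63 had a promoter in the RefSeq table, from 250 bases before to 50 after the start, and both strands were searched. For these genes the RefSeq start nearest to the annotated gene start was taken. For all genes it was the first start listed, whether or not the gene was tested here, so the shares are not fully alike. GCATGCGC was in 17.5% of the 63 promoters and in 2.80% of all 27025 promoters. It was chosen after the promoters were seen, so its shares here are not an independent test of an excess. A longer form of the NRF1 site, also searched, was in 7.94% against 0.98%. With 1 base of that form left free, the shares were 25.4% and 4.78%. AAGATGGC, the YY1 motif, was in 12.7% against 2.88%, CCGGAAGT, the ETS motif, in 7.94% against 4.00%, and CACGTG in 7.94% against 7.24%. GCATGCGC was in 3 of 11 promoters of genes that rose, 0 of 6 of genes that fell and 8 of 46 of those not called. These matches describe letters, not binding.

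Cycs, the gene of cytochrome c, which carries electrons from complex III to complex IV and takes part in apoptosis, had the largest change of the 88 genes. It lies on chromosome 6 (50562563 to 50566538, minus strand; ENSMUSG00000063694). The normalized counts were 207, 214, 161 and 200.4 after IL-33 and 91.7, 106, 78.7 and 77.1 after vehicle. The lowest IL-33 mouse was well above the highest vehicle mouse. The means were 196 ± 23.8 and 88.3 ± 13.4 (SD, n = 4 each; log2 1.14 ± 0.14, limma adjusted p = 2.73e-06). It was the 1 gene of the 88 called with a log2 change of 1 or more; 3861 of the 15110 genes tested were.

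Its redox partner in complex III rose as well. Cyc1 encodes cytochrome c1, the subunit that hands electrons to cytochrome c, and lies on chromosome 15 (76343523 to 76346260, plus strand; ENSMUSG00000022551). Its counts were 489, 503, 452 and 491 after IL-33 and 280.2, 394, 268 and 306 after vehicle. The groups did not overlap, and vehicle mouse 6 was the highest of its group here (log2 0.65 ± 0.12, limma adjusted p = 0.000117). Uqcrc1, a core subunit, rose from 305 ± 24.6 to 374 ± 16.9 (SD, n = 4 each; log2 0.30). These were the 2 rises among the 9 nuclear genes of complex III; 0 fell and 7 were uncalled, among them the Rieske iron-sulfur protein Uqcrfs1 (log2 -0.02) and the core protein Uqcrc2 (0.10), which had the highest mean.

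Complex I, the NADH dehydrogenase, moved in both directions. It has 35 nuclear genes here, of which 4 rose and 3 fell, with 28 uncalled and a median log2 fold change close to 0 (-0.000630). Ndufa10, an accessory subunit, had counts of 464, 483, 475 and 429 after IL-33 and 321, 417, 361 and 336 after vehicle, with no overlap (log2 0.37 ± 0.10, limma adjusted p = 0.00556). Ndufb2 (log2 0.41) rose too, as did Ndufv2 (0.35), which holds an iron-sulfur cluster of the NADH-oxidizing arm. Ndufv2 was not called without vehicle mouse 6 (limma adjusted p = 0.0565).

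The 3 falls of complex I were accessory subunits. Ndufa1 counts were 21.3, 22.8, 16 and 37.8 after IL-33 and 59.7, 34.9, 53.1 and 46 after vehicle. IL-33 mouse 4 lay above vehicle mouse 6, so the groups overlapped although the gene was called (log2 -0.996 ± 0.29, limma adjusted p = 0.0075). Ndufa13, also known as GRIM-19, had 101.4, 142, 141 and 116 against 206, 150.5, 192 and 176, with no overlap (log2 -0.54 ± 0.16, adjusted p = 0.00728); 30% of its exon bases lie opposite Tssk6. Ndufv3 had 132, 122, 130 and 145 against 163, 153, 185 and 173 (log2 -0.35 ± 0.13) and lost its call in 5 of the 8 fits that left out 1 mouse. The core subunits Ndufs1 (log2 0.15) and Ndufv1 (-0.11) and the accessory subunit Ndufs4 (-0.03) were not called, and the estimates of the 28 uncalled genes ran from -0.38 (Ndufb3) to 0.44 (Ndufb6).

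In complex IV, the cytochrome c oxidase, 1 of 11 nuclear genes fell and the other 10 were not called. It was Cox7a2l, on chromosome 17 (83501918 to 83517330, minus strand; ENSMUSG00000024248), which encodes a protein that joins complex IV with complex III in supercomplexes. Its counts were 225, 204, 250.4 and 194 after IL-33 and 356, 313, 257 and 316 after vehicle. The highest IL-33 mouse was just under the lowest vehicle mouse (log2 -0.50 ± 0.13, limma adjusted p = 0.00262). Cox7c, with the highest mean of the complex, was 443 against 385 (log2 0.21), and the subunits Cox5a (0.17) and Cox5b (0.29) were not called; the estimates of the 10 ran from -0.31 (Cox8a) to 0.29. At an unadjusted p under 0.05 there was also 1 gene, and edgeR and DESeq2 each called 1.

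Cox6a1, which stabilises the complex IV dimer, shows how far a single mouse reached. Its counts were 234, 241, 240.0 and 242 after IL-33 and 297, 140, 318 and 315 after vehicle. The IL-33 mice were nearly equal, while vehicle mouse 6 lay far under the rest of its group. With all mice the gene was not called (log2 -0.09), and without mouse 6 it was (log2 -0.36, limma adjusted p = 0.00797).

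Complex II, the succinate dehydrogenase, links the chain with the citric acid cycle, and 0 of its 4 genes were called. At an unadjusted p under 0.05 there were 0 as well, and edgeR and DESeq2 also called 0. The flavoprotein Sdha was 1312 ± 61.2 against 1387 ± 22.8 and the iron-sulfur protein Sdhb 180.3 ± 14.5 against 165 ± 26.3 (SD, n = 4 each). The membrane anchor Sdhc had counts of 326, 327, 275 and 239 after IL-33 and 377, 244, 427 and 488 after vehicle. Vehicle mouse 6 again lay below the rest; the log2 fold change was -0.36 with all mice (adjusted p = 0.122) and -0.58 without it (adjusted p = 0.000588). The other anchor, Sdhd, was 301 against 271 (log2 0.15).

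Vehicle mouse 6, which had the lowest depth, was the lowest of its group in 50 of the 76 nuclear genes. Against the mean of the other vehicle mice, its median deviation (log2) was -0.42 in the 38 genes with shorter exon length and -0.14 in the 38 with longer. Of the rises 1 was among the shorter and 14 among the longer genes, and of the falls 3 were in each. Without mouse 6 the nuclear counts became 12 higher and 12 lower, against 29.3% and 28.3% of all genes tested, the nuclear median became 0.01 and that of complex V 0.20. The part of gene length and of this library in the counts was not tested. Of the 21 called genes 13 were called whichever mouse was left out, namely Cycs, Cyc1, Ndufa10, 7 of complex V (Atp5b, Atp5g1, Atp5l, Atp5o, Atp5g3, Atp5a1 and Atp5f1), and the falls Ndufa1, Ndufa13 and Cox7a2l.

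Summed over genes, the normalized counts of complex V were 9665, 9774, 9567 and 9443 after IL-33 and 7724, 6832, 7292 and 7414 after vehicle, a ratio of the means of 1.31. For complex III the sums were 2011, 1979, 1824 and 1833 against 1625, 1493, 1562 and 1725 (ratio 1.19). Neither sum overlapped between groups. Per kb of exon complex V stayed apart, at 3039 to 3179 against 2279 to 2658, while complex III overlapped, at 1062 to 1191 against 828 to 1075. The mean log2 count over the genes of complex III overlapped as well (7.26 to 7.42 against 6.84 to 7.32), and that of complex V did not (8.34 to 8.44 against 7.89 to 8.26). The sums of complex I (ratio 1.05), complex II (0.945) and complex IV (0.997) did overlap. The log2 ratio of the complex V sum to the complex I sum was 0.844 ± 0.0543 after IL-33 and 0.517 ± 0.0560 after vehicle (SD, n = 4 each), with no overlap, and the difference of 0.33 was the same to 2 decimals when counts were taken per length. Abundant genes weigh most in these sums: Atp5b and Atp5a1 had the highest means of complex V.

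**Figure D3:**
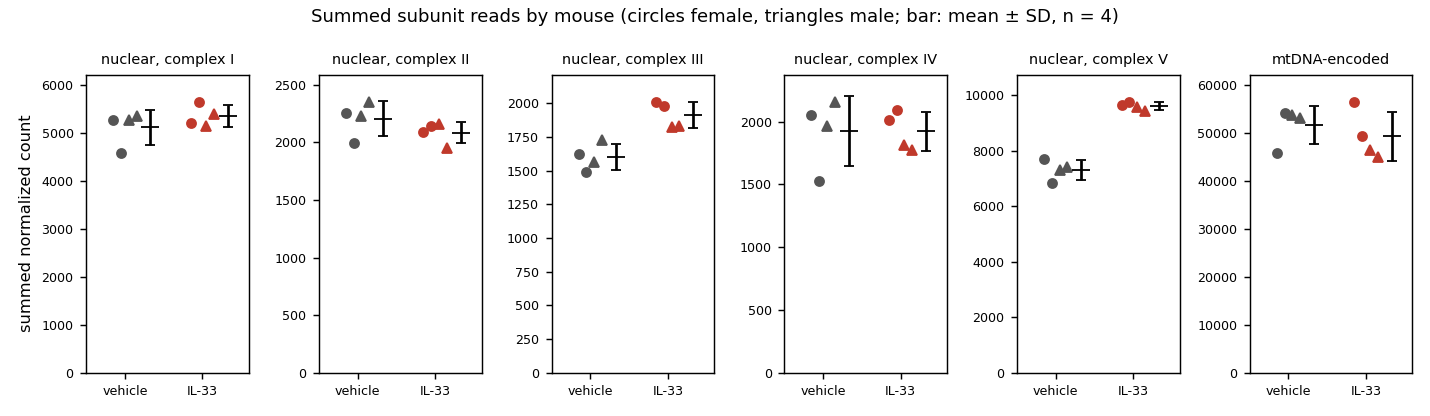
Summed normalized counts (vertical axes, from 0) of the nuclear genes of each complex and of the 12 mitochondrially encoded genes in each mouse, vehicle in grey and IL-33 in red, with the mean ± SD of 4 mice. The groups are apart for complexes III and V, and overlap in the other 4 panels; per kb of exon complex III overlaps too.

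The mitochondrially encoded genes are a small core: 7 ND subunits of complex I, cytochrome b of complex III, 3 subunits of complex IV and ATP6 of complex V. None was called in either direction, 0 of 12 passed an unadjusted p under 0.05, and edgeR and DESeq2 called 0. With 1 mouse left out, 3 were called lower without IL-33 mouse 2, and 1 each without IL-33 mouse 4, vehicle mouse 5 or vehicle mouse 6 (for the last, mt-Co3, log2 -0.89, limma adjusted p = 0.0179). All 12 estimates were below 0, and 11 of 12 were under quantile normalization. In females alone 8 of the 12 were above 0 (median log2 0.06), and in males alone 0 were (median -0.33). Their summed count was 56566, 49435, 46467 and 44931 after IL-33 and 45871, 54194, 53831 and 53240 after vehicle; the groups overlapped, with IL-33 mouse 1 the highest of all 8. The sums made up 0.572 to 0.711% of the reads of a mouse. Of the ribosomal RNAs of the same genome, mt-Rnr2 rose slightly, with overlapping groups (log2 0.18, limma adjusted p = 0.0179), and mt-Rnr1 was not called (log2 -0.03). Under quantile normalization mt-Rnr2 was at 0. That method gives a gene of the same rank in all mice the same value, so this 0 says nothing on the rise.

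The most abundant of them per length was mt-Co1 (chromosome M, 5328 to 6872, plus strand), the catalytic subunit of cytochrome oxidase, at 13889 normalized counts per kb in vehicle mice, followed by mt-Cytb at 8342 and mt-Nd1 at 7235. The mean counts of mt-Co1 were 20598 ± 2965 and 21458 ± 2872 (SD, n = 4 each; log2 -0.06, 95% interval -0.29 to 0.17). For mt-Cytb the interval was -0.18 to 0.16, for mt-Nd1 -0.28 to 0.01 and for mt-Nd5 -0.28 to 0.01. The ND subunits mt-Nd2 (log2 -0.00331), mt-Nd4 (-0.08) and mt-Nd6 (-0.11) were not called either.

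The other genes of the same genome stood far lower. Per kb in vehicle mice, mt-Co2 had 174 normalized counts, mt-Nd3 153, mt-Atp6 149, mt-Co3 98.7 and mt-Nd4l 40.2, against 1163 to 13889 for the other 7. Among the genes described here, these 5 are those whose sequence is found almost whole in annotated nuclear transcripts. Of their 50-base windows 98.0% (mt-Nd3) or more are. The share was 0.0 to 8.19% for mt-Nd1, mt-Nd2, mt-Nd5, mt-Nd6 and mt-Cytb, 51.1% for mt-Co1 and 62.2% for mt-Nd4. Left out for its mean of 3.91, mt-Atp8 was lower still, at 17.8 per kb in vehicle mice. Of its 50-base windows 0.0% are in an annotated nuclear transcript. A stretch of 43 bases, shorter than such a window, is identical in Gm10925, the nuclear copy nearest to mt-Atp6. Nuclear sequence outside annotated transcripts was not searched, so whether mt-Atp8 has a copy there was not tested. How reads that match more than 1 place were counted was not given in the sources used here, so the levels of the 5 and their changes are uncertain. The stretch where the match of mt-Co1 with a nuclear copy begins is shown (GRCm38, 60 bases, 5′ to 3′), with the 6 differing bases in capitals.
mt-Co1, chrM:6381-6440, plus strand: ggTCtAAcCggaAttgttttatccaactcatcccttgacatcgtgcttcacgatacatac
Gm29216, chr1:24616138-24616197, minus strand: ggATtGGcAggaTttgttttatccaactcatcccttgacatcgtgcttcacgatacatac

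In mt-Atp6, mt-Co2 and mt-Co3, which are among the 5 copied genes, the IL-33 mice split. The counts of mt-Atp6 were 43.6, 125, 33.9 and 85.7 after IL-33 and 104, 101.4, 94.3 and 106 after vehicle, and those of mt-Co2 were 58.8, 139, 49.9 and 124 against 119, 96.0, 124 and 138. The counts of mt-Co3 were 39.6, 85.3, 29.2 and 54.5 against 79.1, 42.5, 77.8 and 110.1. Mice 1 and 3 were lowest of all 8 in these genes and mouse 2 was the highest IL-33 mouse. The order was another in mt-Nd3 (59.8, 56.6, 46.1 and 46.7 after IL-33), where mouse 1 was the highest IL-33 mouse, and in mt-Nd4l (10.1, 15.9, 2.82 and 8.91), where mouse 1 lay above mouse 4. The summed count of 7 annotated nuclear copies was lowest in the same mice, at 256, 536, 189 and 455 after IL-33 and 464, 489, 491 and 537 after vehicle (0 of 7 called). The 5 genes with almost no such copy summed to 26635, 24124, 23075 and 21887 after IL-33 and 23282, 24922, 26320 and 26104 after vehicle, with mouse 1 the highest of all 8 and mouse 3 between mice 2 and 4.

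The sum of nuclear over the sum of mitochondrially encoded counts had a log2 ratio of -1.41, -1.17, -1.16 and -1.12 after IL-33 and -1.27, -1.71, -1.54 and -1.48 after vehicle. IL-33 mouse 1 and vehicle mouse 5 lay inside the other group's range, so the groups overlapped. The difference of the means was 0.28, per length 0.18, and 0.31 when log2 values were averaged over genes. In that average every gene weighs alike, also the 5 copied almost whole, whose levels are uncertain. The mean log2 count of those 5 differed by -0.43 between the groups. It differed by -0.07 for the 2 genes copied in part and by -0.08 for the 5 with almost no copy.

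Between females and males 0 of the 88 genes were called (1 at an unadjusted p under 0.05), against 0.0596% of all genes tested. The interaction of treatment with sex called 0 of the 88 (10 at an unadjusted p under 0.05), against 0.00662%, and the smallest adjusted p was 0.251, for mt-Nd2 and mt-Nd4. Within the males alone (2 against 2) 7 of the 12 mitochondrially encoded genes were called lower, where 25.0% of all genes tested were, and within the females alone 0 were called, where 41.9% were in either direction. The counts of mt-Nd4 were 4749 and 5010 after IL-33 and 4451 and 4243 after vehicle in females, and 4293 and 4121 against 5132 and 5395 in males. The direction was opposite in the sexes for this gene, 1 of the 8 above 0 in females, but with 2 mice per treatment and sex the interaction was not called.

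Several tissue-specific isoforms fell under the limit. Cox4i2, the isoform of subunit 4 linked to low oxygen, had normalized counts of 14.2, 15.9, 5.65 and 15.6 after IL-33 and 2.52, 2.18, 0 and 0 after vehicle. The 50 reads against 5 gave a ratio of 10.2 (95% exact interval 4.11 to 32.9, counting error only), and it was too low for the test. Its common counterpart Cox4i1 is listed under another symbol in the deposited table; by its identifier it was 376 ± 77.5 against 334 ± 82.0 (SD, n = 4 each; log2 0.18, limma adjusted p = 0.475). AA467197, a paralog of the complex IV subunit Ndufa4, had 27 reads after IL-33 and 1 after vehicle (ratio 27.7, interval 4.56 to 1134), while Ndufa4 itself was not called (log2 0.06). The heart and muscle isoforms Cox6a2, Cox7a1 and Cox8b had mean counts of 13, 4.75 and 4.24 after IL-33 and 6.91, 7.39 and 4.6 after vehicle; the groups overlapped in all 3.

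Genes that build and supply the complexes were read from lists chosen with results of these data known. Of all genes tested 29.2% rose and 28.5% fell, which stands beside every list below. The rises were 27.8% of the complex I assembly list and 27.3% of that of complex IV, close to that share. The falls were 16.7% and 4.55%. Of 18 assembly factors of complex I, 5 genes rose, 3 fell and 10 were not called; Dmac2 fell from 168 to 75.7 (log2 -1.14) and Nubpl, which delivers iron-sulfur clusters, from 106 to 53.1. Of 22 assembly factors of complex IV 6 rose, 1 fell and 15 were not called, with Sco1, a copper chaperone (log2 0.94), and Cox10, which makes heme O (0.87), among the rises. For complex III 3 of 7 rose (Ttc19 0.76, Bcs1l 0.51) and for complex II 1 of 3 (Sdhaf2 0.41). Of the 6 genes around complex V, Tmem70, an assembly factor, rose (log2 0.37). Atpif1, the inhibitor that keeps ATP synthase from running backwards, fell: its counts were in the mean 48.2 after IL-33 and 116 after vehicle (log2 -1.24, limma adjusted p = 1.14e-05), and 33.7% of its exon bases lie opposite another gene.

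Genes that express and copy the mitochondrial genome were mostly higher where called, except those of DNA copying. Of 76 mitochondrial ribosomal protein genes 36 rose, 4 fell and 36 were not called (median log2 0.36), led by Mrps18b (1.40) and Mrpl45 (1.26). Of 24 genes of mitochondrial transcription and RNA handling 15 rose, 2 fell and 7 were not called. Among the rises were Tfam, which packages mitochondrial DNA and starts its transcription (log2 0.49), the RNA polymerase Polrmt (0.55) and the RNA-binding Tbrg4 (1.25) and Fastkd2 (1.11). Of 13 genes of mitochondrial translation 5 rose, 1 fell and 7 were not called (median log2 0.18), and the summed count of the list was lower, at 6280 to 6809 against 8740 to 9861. The elongation factor Tufm rose from 100.3 to 254 (log2 1.33). Of 12 genes of mitochondrial DNA copying 2 rose and 6 fell, among them the thymidine kinase Tk2 (log2 -1.12) and the helicase Twnk (-0.75).

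**Figure D4:**
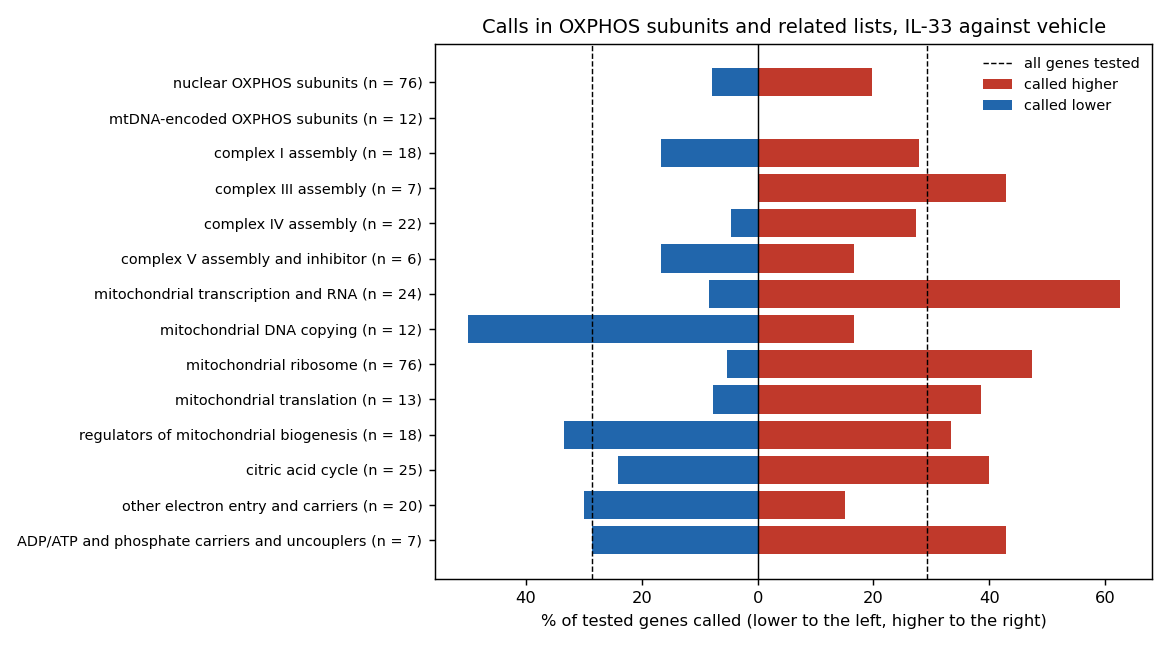
Percent of the tested genes of each list called higher (red, to the right) or lower (blue, to the left), with dashed lines at the 29.2% and 28.5% of all genes tested. Nuclear OXPHOS subunits lie inside both lines and the mitochondrially encoded ones have no bar. Mitochondrial transcription (62.5%) and ribosome genes (47.4%) have the largest shares of higher calls. Complex III assembly, the carriers, the citric acid cycle, mitochondrial translation and the regulators pass that line too. DNA copying, the regulators and other electron entry pass the line for lower calls, and the carriers lie about at it (28.6%).

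Among the regulators of mitochondrial biogenesis 6 rose, 6 fell and 6 were not called of 18 tested. The shares, 33.3% each way, were near the 29.2% and 28.5% of all genes tested. Pprc1, a coactivator of the PGC-1 family that is known to respond to growth signals, rose from 656 to 1559 (log2 1.25), Myc by a log2 of 1.61 and Nrf1, whose motif is described above, by 0.39. Ppargc1b, another PGC-1 coactivator, fell from 20.3 to 9.0 (log2 -1.04), and the corepressor Nrip1 from 4336 to 1333 (-1.70). Ppargc1a was too low for the test, with 9 reads after IL-33 and 23 after vehicle.

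Of 25 genes of the citric acid cycle and pyruvate entry 10 rose, 6 fell and 9 were not called. Acod1, which turns cis-aconitate into itaconate, a known inhibitor of succinate dehydrogenase, went from a mean of 0.796 to 315 (log2 7.54), the largest change on these lists, while the target's own 4 genes were not called. Pdk2, a kinase that switches off pyruvate dehydrogenase, fell by 2.95 on the log2 scale. Of 20 genes of other electron entry and ubiquinone synthesis 3 rose and 6 fell, among the latter Sqor, the sulfide oxidase (log2 -1.66), and Coq8a (-1.70). Of 7 carriers tested 3 rose and 2 fell: the outer membrane channel Vdac1 (-0.62) and the uncoupling protein Ucp2, from 5175 to 3120 (-0.75).

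In the authors' deposited table, which lists genes up to an adjusted p of 0.00996, 12 of the 88 genes appear, 10 higher, 2 lower and 0 mitochondrially encoded. None had the other direction in limma. The authors' deposited table gives Cycs a log2 fold change of 1.15 (SE 0.172), Atp5g1 0.85, Cyc1 0.64, Atp5b 0.61, Ndufa13 -0.54 and Cox7a2l -0.50. The other 9 genes called by limma are not in it.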

How the data were processed

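RNA-seq of sorted cortical microglia from 8 mice, 4 per group, was read from the tables deposited by the authors. The expression table deposited by the authors holds a signal in normalized counts: gene counts over a library's size factor. Within 0.001 reads 100% of its values were whole multiples of 1 step, and whole reads were recovered for the depths, edgeR 4.0.16 and DESeq2 1.42.0. STAR 2.6.0, HTSeq 0.9.0, DESeq2 1.24.0, FastQC and the builds mm10 and GRCm38 are named by the submitters' processing notes, with no role or order; strand setting and annotation were not given in the sources used here. Beside these values, the comparison deposited by the authors holds, per its file headers, log2 fold changes with SE, a score (their quotient), and p-values, raw and adjusted.

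The main test was limma 3.58.1 in R 4.3.3 (trend and robust, treatment and sex terms) on log2 of the normalized count plus 1, which draws fold changes of low genes towards 0. Genes with a count of 10 or more in at least 4 libraries were tested, all 88 members among them. The sex term came from the same model, and the interaction from a separate limma fit with that term added, both two-sided. The fit was tested on simulated data. The motif GCATGCGC was chosen after the promoters were seen. Members and lists were chosen with earlier results of these data known. Named were all mitochondrially encoded genes, a panel (mainly Sdh, Cox and core subunits and regulators), and per complex the most abundant gene and up to 3 called rises and 3 called falls; of each related list up to 2 called genes. Some genes that met this rule, and the sum of the lymphocyte markers, are not reported here. Atp5f1, Atp5g2, Atp5g3, Atp5h, Atp5o, Atp5d, Atp5e, Cox5b, Nrf1, Cd3e, Nkg7 and the astrocyte markers were named after their values were seen. Identifiers were looked up in GENCODE M21 (53620 of 53801 found); complex was assigned by name, with Ndufa4 in complex IV, and Atp5s, not a subunit, counted apart. By annotation symbol 90 genes would be members, since Cox4i1 and Atp5mpl carry other symbols. Nothing says that mice were processed in batches. All 12 pairs of mice within a group differed beyond sampling noise (chi-square per gene 4.26 to 21.2). Intervals of read ratios (95%) cover counting error only (reads carry no molecular identifiers), and p-values measure the spread between these mice. Alternatives were other scalings, filters, pseudocounts and tests, either sex alone, and each mouse left out. Per-sample columns left unmapped: 0.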

Additional observations from a re-analysis of the deposited data

Results flagged for a closer look

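Among 88 groups of 4 values looked at, a single mouse stood far from the other 3 in 2, where chance flags about 1 group in 20. The Atp5a1 count of 1961 in IL-33 mouse 2 lay above those of the other IL-33 mice. The Cox6a1 count of 140 in vehicle mouse 6 lay below those of the other vehicle mice.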

How the results depend on the processing

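No paired analysis was possible because the mouse numbers run from 1 to 8 over both groups and no number is shared. The counts called depended most on the sex and the library used. In females alone the nuclear genes had 9 higher and 1 lower, complex I 0 and 0, complex V 0 lower, and the medians of complexes III and IV were both 0.36. In males alone the nuclear genes had 8 higher, with a median of -0.041; 7 mitochondrially encoded genes were lower; complex I had 2 higher, II 1 lower, III 1 higher, IV 2 lower with a median of -0.12, and V 4 higher and 1 lower. Without a filter on low values 3 nuclear genes were lower, and complex I had 2 higher, III 1 higher and V 0 lower. Complex I had 2 higher with total reads, with coding reads and with quantile normalization, where mitochondrially encoded genes had 2 lower each; III had 1 higher with the last 2. Without trend and robust settings complex I had 5 lower and V 0. With each mouse left out in turn, the nuclear genes had 11 to 16 higher and 3 to 12 lower (median 0.01 to 0.17), the mitochondrially encoded 0 to 0 higher and 0 to 3 lower (median -0.17 to -0.04). Complex I had 1 to 5 higher and 2 to 6 lower (median -0.09 to 0.08), II 0 to 1 lower (median -0.02 to 0.07), III 1 to 2 higher (median -0.0035 to 0.23), IV 1 to 3 lower (median 0.02 to 0.26), and V 7 to 9 higher and 0 to 2 lower (median 0.20 to 0.41); the log2 ratio of nuclear to mitochondrially encoded sums differed by 0.21 to 0.36. The extremes came without vehicle mouse 6 for falls (12 nuclear, 6 in I, 3 in IV), vehicle mouse 8 (3 nuclear falls), and IL-33 mouse 2 (3 mitochondrially encoded falls) or 4 (1 rise in I); the 2 falls of V became 1 or 0 without any other mouse than vehicle mouse 6, and the 2 rises of III became 1 without IL-33 mouse 1 or 2. The cause of these moves was not tested. Over 1666 values of named genes under these alternatives, 1479 kept their direction and side of the threshold, 116 lost the call, 29 gained one and 42 changed direction, in 17 genes; 0 of the 42 were called with all mice or under the alternative. In females alone 14 changed: mt-Nd4l to 0.59, mt-Nd2 0.32, Ndufs4 0.32, Cox6a1 0.22, mt-Cytb 0.18, Cox8a 0.17, mt-Nd4 0.17, mt-Nd6 0.16, Sdhc 0.11, Uqcrfs1 0.10, mt-Co1 0.088, mt-Nd3 0.035, Ndufv1 0.015 and mt-Co3 0.0031 (log2). In males alone Cox4i1 was -0.27 and Cox5a -0.12; mt-Nd3 was 0.080 under quantile normalization and Ndufa4 -0.0022 with coding reads. With each mouse left out, the ranges of the log2 fold change that crossed 0 were -0.038 to 0.36 for Cox4i1, -0.36 to 0.070 for Cox6a1, -0.072 to 0.18 for Ndufa4, -0.11 to 0.11 for Ndufs4, -0.14 to 0.076 for Uqcrfs1, -0.18 to 0.0066 for mt-Co1, -0.090 to 0.036 for mt-Cytb, -0.14 to 0.082 for mt-Nd2, -0.13 to 0.13 for mt-Nd3 and -0.80 to 0.073 for mt-Nd4l. Under quantile normalization mt-Rnr2 was at 0.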
